A study of Caenorhabditis elegans with 8 samples.

Results

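The genes described here are 10 sex determination genes that set when the germ line of the Caenorhabditis elegans hermaphrodite makes sperm and when it makes oocytes: fog-1, fog-3, fem-1, fem-2, fem-3, tra-1, tra-2, fog-2, fbf-1 and fbf-2. They were taken by name from a table of 46093 genes, and all 10 had counts in every library. RNA was measured in whole worms of a strain labelled atf-6 and of the wild-type strain N2, with 4 libraries per strain from independent cultures. All worms were day 1 adults kept at 20 °C and collected 72 h after synchronized first-stage larvae had been given food, with about 1000 worms per culture. The labels name no allele for the atf-6 strain and no sex, and they name no treatment in either strain. ATF-6 is known as a membrane-bound transcription factor of the unfolded protein response, the cell’s answer to misfolded protein in the endoplasmic reticulum.

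In the hermaphrodite the germ line makes sperm during late larval life, stores them, and then turns to oocytes for the rest of adult life. FOG-1, an RNA-binding protein related to CPEB, and FOG-3, of the Tob family, are the last known steps that commit a germ cell to the sperm fate. Both genes are regulated by TRA-1, a zinc finger transcription factor of the Gli family, which FEM-1, FEM-2 and FEM-3 help to degrade. TRA-2 is a membrane protein that holds FEM-3 back, and much of the switch lies in the translation of mRNA: FOG-2 with GLD-1 represses tra-2 mRNA to let sperm form, while FBF-1 and FBF-2 repress fem-3 mRNA to let oocytes form. The tra and fem genes also act in the soma.

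Depth was 12664222 to 21698298 estimated counts per library. The atf-6 transcript itself was at 14.1 to 16.0 counts scaled to library size (CPM) in the libraries labelled atf-6, against 10.8 to 13.2 CPM in wild type, and it did not pass the test (adjusted p = 0.346, edgeR's quasi-likelihood test). Without a named allele this level does not check the label. The summed level of the 31 major sperm protein (msp) genes, which encode the main cytoskeletal protein of sperm, came to 387, 239, 273 and 271 CPM in the 4 atf-6 libraries (replicates 1 to 4). The wild-type replicates 1 to 4 had 100, 150, 176 and 104 CPM. The groups did not overlap, and the mean was 292 ± 64.9 CPM in atf-6 and 133 ± 36.7 CPM in wild type (SD, n = 4 each), a ratio of 2.20. Within each strain this level was highest in atf-6 replicate 1 and wild-type replicate 3. The summed level of the 52 other sperm genes listed was also highest in atf-6 replicate 1 (226 CPM). In wild type that sum was 121.2 CPM in replicate 2 and 120.5 CPM in replicate 3, so it did not single out replicate 3. Of the 12 genes listed as markers of males, cwp-1 and cwp-3 were at 0 in every library, and dmd-3 and mab-23 were at 0 in 7 of the 8. The summed level of the 12 was 4.64 to 6.18 CPM in atf-6 and 4.93 to 7.07 CPM in wild type. Most of it came from plg-1, which averaged 4.06 CPM in atf-6 and 4.59 CPM in wild type. her-1 (at most 0.758 CPM) and cwp-4 (at most 0.835 CPM) also had counts in every library.

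None of the 10 switch genes passed the test between atf-6 and wild type, although the sperm transcripts differed. All 10 were tested, 0 had an edgeR adjusted p below 0.05, against 0.816% of the 12375 genes tested, and 0 had an unadjusted p below 0.05, against 7% of all genes. In every one of the 10 the libraries of the strains overlapped, where 5.79% of all genes did not overlap. The log2 fold change was above 0 for 5 of the genes and below 0 for the other 5, and apart from fog-3 its size was at most 0.10. The lowest adjusted p among them was 0.863, and DESeq2 also called 0 of the 10. RNA came from whole worms, so fewer cells of a type and less RNA per cell cannot be told apart for any of these genes.

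**Figure D1:**
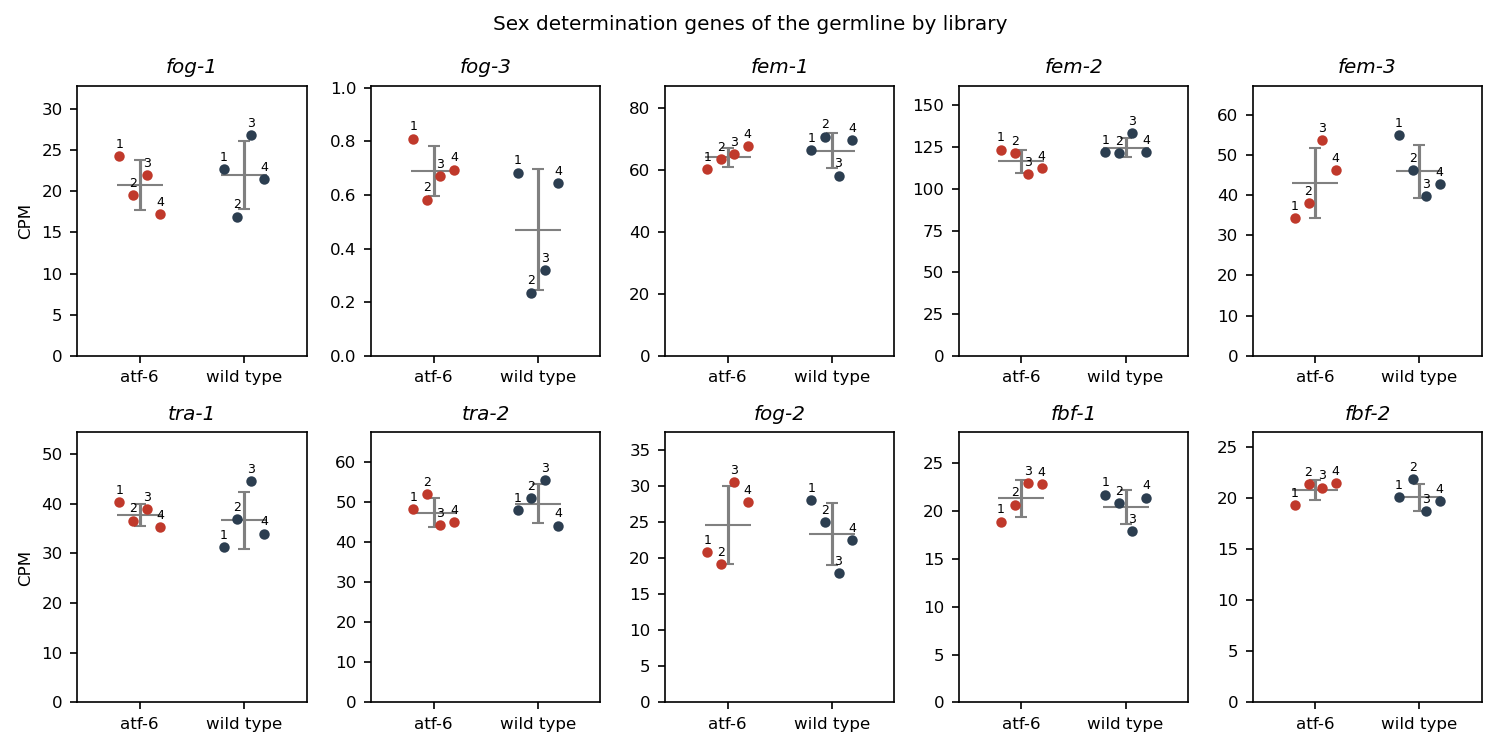
Level of the 10 switch genes in each library, in CPM, with atf-6 left and wild type right in each panel; points carry the replicate number, and the grey bar and whiskers are the mean ± SD of 4 libraries. The points of the strains overlap in all 10 panels, and the vertical scales differ between panels.

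Of the genes that commit germ cells to sperm, fog-1 (WBGene00001481) lies on chromosome I from 3211046 to 3217267 on the plus strand of WBcel235. Its level was 24.29, 19.53, 21.96 and 17.18 CPM in atf-6 replicates 1 to 4, against 22.70, 16.90, 26.82 and 21.42 CPM in wild-type replicates 1 to 4. The highest and the lowest of the 8 libraries were both wild type, so atf-6 lay inside the wild-type range. The means were 20.74 ± 3.07 CPM in atf-6 and 21.96 ± 4.09 CPM in wild type (SD, n = 4 each), with a log2 fold change of -0.08 (SE 0.146, adjusted p = 0.942, edgeR).

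fog-3 (WBGene00001483; chromosome I, 10016765 to 10018121, plus strand, 8 exons) was close to the limit of detection in these adults. It had 11, 10, 14 and 13 counts in atf-6 replicates 1 to 4 and 9, 5, 5 and 14 counts in wild-type replicates 1 to 4, in all 48 counts in atf-6 and 33 in wild type. These counts are 0.81, 0.58, 0.67 and 0.69 CPM in atf-6, against 0.68, 0.24, 0.32 and 0.65 CPM in wild type. The exact 95% Poisson interval, which covers counting error only, ran over the libraries from 0.280 CPM at its lowest bound to 1.45 CPM at its highest in atf-6, and from 0.0764 to 1.30 CPM in wild type. The intervals of every library overlapped those of the other strain, and wild-type replicates 1 and 4 lay inside the atf-6 range. fog-3 reached 10 counts in 4 of 4 atf-6 libraries and in 1 of 4 wild-type libraries, so its entry into the test leaned on the atf-6 group. Its log2 fold change of 0.56 was the largest of the 10 in size (SE 0.353, unadjusted p = 0.142, adjusted p = 0.863, edgeR), and leaving out single libraries gave 0.31 to 0.81.

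The fem genes, whose products work with a cullin ligase to degrade TRA-1, lay close together in level between the strains. fem-2 (WBGene00001412; chromosome III, 632019 to 634626, minus strand, 5 exons) encodes a protein phosphatase and was the most abundant of the 10 switch genes. It had 123.4, 121.5, 108.8 and 112.3 CPM in atf-6 replicates 1 to 4, against 121.9, 121.6, 133.5 and 122.1 CPM in wild-type replicates 1 to 4. Wild-type replicate 3 stood above the other wild-type libraries, and atf-6 replicates 2, 3 and 4 lay below all wild-type libraries, replicate 2 by a narrow margin. The log2 fold change was -0.10 (SE 0.0624, adjusted p = 0.863, edgeR).

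fem-1 (WBGene00001411; chromosome IV, 5533140 to 5537962, minus strand) encodes an ankyrin repeat protein. It had 60.4, 63.5, 65.3 and 67.8 CPM in atf-6 replicates 1 to 4, against 66.5, 70.8, 58.2 and 69.7 CPM in wild-type replicates 1 to 4. Its wild-type range enclosed all 4 atf-6 libraries, and the log2 fold change was -0.05 (SE 0.0743, adjusted p = 0.934, edgeR). fem-3 (WBGene00001413; chromosome IV, 9104966 to 9107607, plus strand), whose mRNA is the target of FBF, varied more between cultures of a strain than the other fem genes. It had 34.3, 37.9, 53.7 and 46.1 CPM in atf-6 replicates 1 to 4, against 54.9, 46.1, 39.8 and 42.8 CPM in wild-type replicates 1 to 4. The highest library of a strain was 1.57 times the lowest in atf-6 and 1.38 times the lowest in wild type, and the log2 fold change between strains was -0.09 (SE 0.143, adjusted p = 0.936, edgeR).

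tra-1 (WBGene00006604; chromosome III, 11170890 to 11195201, minus strand) encodes the transcription factor at the end of the pathway. It had 40.3, 36.6, 38.8 and 35.3 CPM in atf-6 replicates 1 to 4, against 31.3, 36.9, 44.6 and 34.0 CPM in wild-type replicates 1 to 4. All atf-6 libraries lay inside the wild-type range, and the means were 37.7 ± 2.23 CPM in atf-6 and 36.7 ± 5.75 CPM in wild type (SD, n = 4 each). The log2 fold change was 0.04 (SE 0.105, adjusted p = 0.960, edgeR).

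tra-2 (WBGene00006605; chromosome II, 6955384 to 6965673, minus strand) encodes the membrane receptor and is the mRNA that FOG-2 and GLD-1 repress. It had 48.21, 51.94, 44.11 and 44.88 CPM in atf-6 replicates 1 to 4, against 47.91, 50.84, 55.48 and 44.04 CPM in wild-type replicates 1 to 4. The lowest and the highest library were again both wild type, and the log2 fold change was -0.07 (SE 0.0854, adjusted p = 0.933, edgeR). tra-2 shares 26 bp with ceh-38 on the opposite strand, and fbf-1 shares 15 bp with H12I13.6. The sources used here do not say whether reads were assigned by strand.

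Of the regulators of translation, fog-2 (WBGene00001482; chromosome V, 20199254 to 20200648, plus strand) encodes an F-box protein. It had 20.90, 19.24, 30.62 and 27.80 CPM in atf-6 replicates 1 to 4, against 28.09, 25.09, 17.96 and 22.53 CPM in wild-type replicates 1 to 4. Its libraries fell apart inside both strains, with the highest at 1.59 times the lowest in atf-6 and 1.56 times in wild type, and the log2 fold change between strains was 0.08 (SE 0.169, adjusted p = 0.953, edgeR). Its direction turned when wild-type replicate 3 and atf-6 replicate 3 were both left out (-0.15). The related gene ftr-1 begins and ends upstream of fog-2, with 1012 bp between them, so reads shared by the pair depend on how the quantifier divided them. ftr-1 averaged 8.60 CPM in atf-6 and 8.82 CPM in wild type.

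fbf-1 (WBGene00001401; chromosome II, 6078263 to 6080843, minus strand, 8 exons) and fbf-2 (WBGene00001402; chromosome II, 6088863 to 6091480, minus strand, 8 exons) encode nearly identical PUF RNA-binding proteins that also keep germline stem cells. They lie 8019 bp apart, and their values are uncertain in the same way as those of fog-2 and ftr-1. fbf-1 had 18.9, 20.7, 22.9 and 22.8 CPM in atf-6 replicates 1 to 4, against 21.7, 20.8, 17.9 and 21.4 CPM in wild-type replicates 1 to 4. fbf-2 had 19.4, 21.4, 21.1 and 21.5 CPM in atf-6 replicates 1 to 4, against 20.1, 21.9, 18.7 and 19.7 CPM in wild-type replicates 1 to 4. Both genes were lowest in atf-6 replicate 1 and wild-type replicate 3 of their strains. The log2 fold change was 0.06 for fbf-1 (SE 0.0941) and 0.05 for fbf-2 (SE 0.0789), each with an edgeR adjusted p of 0.933.

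Levels of different genes were compared per transcript length, in TPM, which scales each library for transcript length and depth. In mean TPM over the 8 libraries the order was fem-2 (36.6 TPM, range 30.8 to 40.4), fem-3 (25.9, 16.1 to 34.6), fog-2 (17.03, 10.7 to 24.0), fem-1 (16.96, 12.8 to 19.5) and fog-1 (13.2, 10.5 to 15.4). Below them came tra-2 (10.7 TPM, 8.77 to 11.6), tra-1 (5.49, 4.90 to 6.49), fbf-1 (5.39, 3.90 to 6.58), fbf-2 (4.85, 3.74 to 5.66) and fog-3 (0.384, 0.154 to 0.509). The ranges of neighbours in this order overlapped except at the steps from tra-2 to tra-1 and from fbf-2 to fog-3. Within single libraries the order was firmer for some pairs: fem-2 lay above fem-3, fem-3 above fog-2 and fbf-1 above fbf-2 in 8 of 8 libraries. Other neighbours could not be ordered, with fog-2 above fem-1 in 3 of 8 libraries and tra-1 above fbf-1 in 4 of 8. Of fog-1 TPM, 35.3% to 64.1% came from the short transcript Y54E10A.4d, on 28.9 to 69.8 reads per library. The longer fog-1 transcript Y54E10A.4a had 3.99 to 6.71 TPM, so the place of fog-1 above tra-2 depends on Y54E10A.4d.

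**Figure D2:**
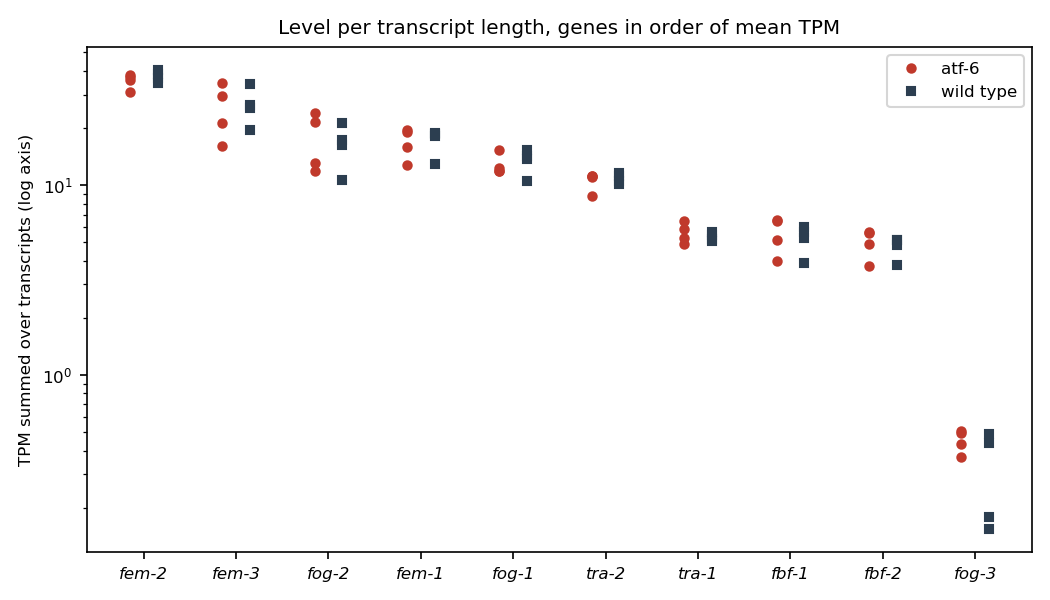
TPM of the 10 switch genes, summed over transcripts, on a log axis, with genes from left to right in order of mean TPM; red circles are the 4 atf-6 libraries and dark squares the 4 wild-type libraries. fem-2 is at the top with 30.8 to 40.4 TPM and fog-3 at the bottom with 0.154 to 0.509 TPM, and the strains overlap for each gene.

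Ratios of switch genes within a library were compared without a test, and the libraries of the strains overlapped in each ratio given here. The TPM of fem-3 over that of tra-2, a promoter of the sperm fate over its inhibitor, was 2.38 ± 0.632 in atf-6 and 2.42 ± 0.458 in wild type (SD, n = 4 each). The TPM of fog-2 over that of tra-2 was 1.66 ± 0.478 in atf-6 and 1.504 ± 0.349 in wild type. The TPM of fem-3 over that of fbf-1, a target over its repressor, was 4.07, 4.11, 5.26 and 4.53 in atf-6 replicates 1 to 4, against 5.68, 4.98, 4.99 and 4.48 in wild-type replicates 1 to 4. The mean of that ratio was 4.49 ± 0.554 in atf-6 and 5.03 ± 0.494 in wild type, with atf-6 replicate 3 inside the wild-type range and wild-type replicate 4 inside the atf-6 range. The TPM of fbf-1 over that of its near copy fbf-2 was 1.11 ± 0.0645 in atf-6 and 1.10 ± 0.0812 in wild type. fog-1 over fog-3 was 28.5, 31.8, 31.0 and 23.4 in atf-6 replicates 1 to 4, against 31.4, 68.1, 80.1 and 31.5 in wild-type replicates 1 to 4, and the high ratios belong to the wild-type libraries with 5 fog-3 counts each. The fog-1 side of this ratio includes the short transcript Y54E10A.4d.

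To relate the switch genes to the sperm transcripts of each library, the log2 level of each gene was fitted on the log2 summed msp level with the strain kept in the model, so that the slope is read within strains. None of the 10 genes passed the test for a slope, with edgeR adjusted p of 0.202 or more. At this threshold 0% of the 12375 genes passed, msp genes included. DESeq2 gave an adjusted p to 3135 genes, called 285 of them, and called 0 of the 2 switch genes among them, fem-1 and fem-2. At an unadjusted p below 0.05 the test took 1 of the 10, tra-1, against 19.4% of all genes. The slope was above 0 for 4 genes and below 0 for 6.

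tra-1 had the lowest p of the 10: its level was 0.41 log2 units higher per doubling of the msp level (SE 0.120, unadjusted p = 0.00588, adjusted p = 0.202, edgeR). Its 2 highest values, 44.6 CPM in wild-type replicate 3 and 40.3 CPM in atf-6 replicate 1, were in the libraries with the highest msp level of their strains. The slope passed the threshold in 1 of the 8 fits that left out a library, that without atf-6 replicate 2 (slope 0.44, adjusted p = 0.0430), in which 11.3% of all genes also passed. Over the 8 fits the tra-1 slope ran from 0.26, without wild-type replicate 3 (unadjusted p = 0.0844), to 0.50, without atf-6 replicate 1. The other slopes above 0 were 0.26 for fog-1 (SE 0.223), 0.12 for fem-2 (SE 0.0925) and 0.19 for tra-2 (SE 0.128). For fog-1 the slope rested on wild-type replicate 3, without which it was -0.0041. It also depended on the processing. With all 8 libraries kept it was 0.026 with summed transcript reads in place of the gene table, and 0.049 with a replicate block. Without wild-type replicate 3 the slope was 0.06 for fem-2 and 0.08 for tra-2. The fog-1 slope was 0.11 and the fem-2 slope 0.08 without atf-6 replicate 1, and the fog-1 slope was 0.41 without wild-type replicate 2. The tra-2 slope was 0.30 without atf-6 replicate 2 and 0.12 without wild-type replicate 4.

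Slopes below 0 were those of the FBF genes and their target, of fog-2 and fem-1, and of fog-3. They were -0.38 for fem-3 (SE 0.213, adjusted p = 0.335), -0.28 for fbf-1 (SE 0.136, adjusted p = 0.277) and -0.09 for fbf-2 (SE 0.133, adjusted p = 0.725), all by edgeR. They were -0.37 for fog-2 (SE 0.271, adjusted p = 0.447), -0.17 for fem-1 (SE 0.112, adjusted p = 0.405) and -0.74 for fog-3 (SE 0.610, adjusted p = 0.496). Leaving out single libraries kept these 6 slopes below 0 but moved most of them by over 1.5 times. fem-1 went to -0.04, fbf-2 to -0.01 and fog-2 to -0.14 without wild-type replicate 3, and fem-3 to -0.22, fbf-2 to -0.02 and fog-3 to -1.58 without atf-6 replicate 1. fog-2 went to -0.58 without atf-6 replicate 2, and fog-3 to -0.42 and fbf-2 to -0.16 without wild-type replicate 2, while fbf-1 stayed between -0.34 and -0.21. In the fit of all 8 libraries none of the 6 had an unadjusted p below 0.05, and the lowest was 0.0635, of fbf-1.

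**Figure D3:**
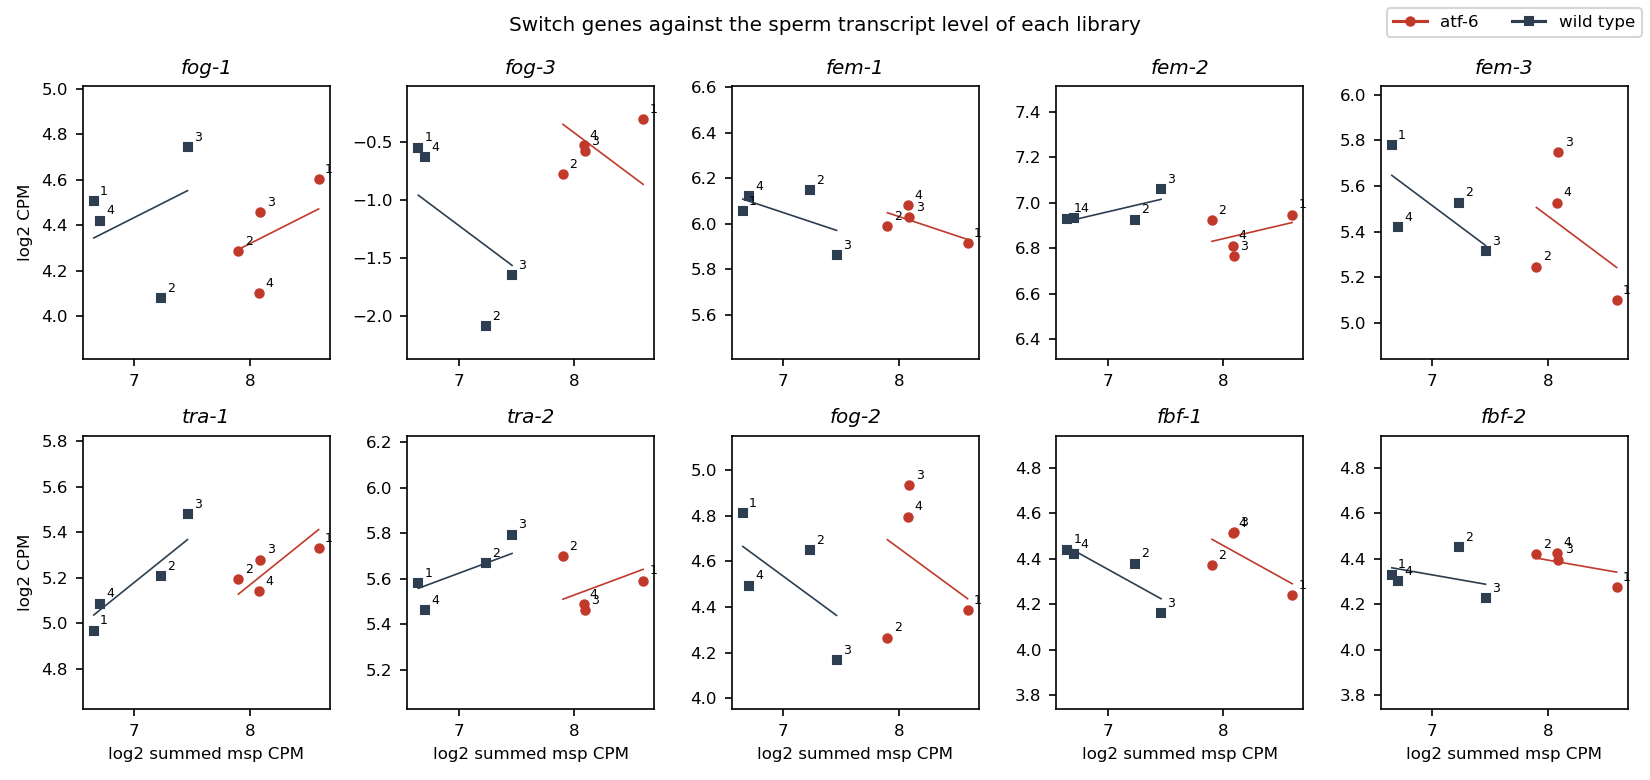
Log2 CPM of each switch gene (vertical) against log2 summed CPM of the 31 msp genes (horizontal) in the 8 libraries, numbered by replicate; red circles are atf-6 and dark squares wild type, and each line has the slope fitted in common to both strains. The atf-6 libraries lie to the right of all wild-type libraries, tra-1 has the slope with the smallest p (0.41), and the vertical ranges differ between panels.

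In the library with the highest msp level of each strain, fog-1, fem-2 and tra-1 were the highest of their strain in both strains, which held for 21.7% of all genes. In the same libraries fem-1, fem-3, fbf-1 and fbf-2 were the lowest of their strain in both strains, which also held for 21.7% of all genes. The remaining 3, fog-2, fog-3 and tra-2, did neither. These counts depend on the msp genes as the measure, since the other sperm genes were as high in wild-type replicate 2. There fog-1 and fem-2 were the lowest of wild type, fem-1 and fbf-2 the highest, and tra-1, fem-3 and fbf-1 neither. Wild-type replicate 2 held the highest or the lowest wild-type value of 5 of the 10 genes, against 32% of all genes. Wild-type replicate 3 held the highest or the lowest wild-type value of 9 of the 10 genes, against 73.2% of all genes, so an extreme value there was common. Along the first principal component of the within-strain differences, which held 48.3% of their variance, wild-type replicate 3 (23.1) and atf-6 replicate 1 (21.0) lay at one end, and atf-6 replicate 3 (-20.0) and wild-type replicate 1 (-18.3) at the other.

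Sums of other germline transcripts peaked in the same libraries. The summed level of 18 oocyte genes was 16639, 16162, 14438 and 15300 CPM in atf-6 replicates 1 to 4, against 15363, 16288, 17512 and 16278 CPM in wild-type replicates 1 to 4. The summed level of 11 germ cell genes was 7969, 7699, 7084 and 7305 CPM in atf-6, against 7348, 7767, 8958 and 7839 CPM in wild type. Both sums were highest in atf-6 replicate 1 and wild-type replicate 3, the libraries with the highest msp level of their strains. The other libraries did not all keep the msp order. In atf-6 both sums were lowest in replicate 3, whose msp level (273 CPM) was above that of replicates 2 and 4. The median slope on the msp level was 0.099 for the oocyte genes and 0.16 for the germ cell genes. Some single genes lay below 0, such as chs-1 (-0.36) and glp-1 (-0.20). The part of variation shared with these sums in the slopes of the switch genes was not tested.

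Isoforms of 6 switch genes were quantified separately, and 14 transcripts had a mean share of 5% to 95% of their gene's TPM. For 0 of the 14 were the strains apart without overlap, against 2.13% of the 7100 transcripts compared in all genes. For tra-2, the short transcript C15F1.3c was quantified with 1891 bases, against 4655 for the longer C15F1.3a. The annotation used here places it at the 3′ end of the gene, from 6955619 to 6956971, a stretch shorter than the quantified length, so the quantified model differs from the annotated one. The same holds for Y54E10A.4d of fog-1. Short tra-2 mRNAs are known to encode the intracellular part of the receptor. C15F1.3c held 67.4%, 72.8%, 39.9% and 64.3% of tra-2 TPM in atf-6 replicates 1 to 4, against 63.1%, 65.9%, 76.8% and 72.9% in wild-type replicates 1 to 4. It was the larger share in every library but atf-6 replicate 3, where C15F1.3a held 54.9%.

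For fem-3, C01F6.4a held 85.5%, 87.5%, 67.4% and 64.8% of TPM in atf-6 replicates 1 to 4, against 58.8%, 81.1%, 88.2% and 82.0% in wild-type replicates 1 to 4. The shorter C01F6.4c was at 0 in atf-6 replicates 1 and 2 and wild-type replicate 3, and held 23.2% in atf-6 replicate 4 and 23.9% in wild-type replicate 1. For fog-2, Y113G7B.5b held 44.3%, 53.4%, 85.0% and 85.9% in atf-6 replicates 1 to 4, against 78.9%, 57.0%, 73.0% and 86.0% in wild-type replicates 1 to 4. For fog-2 the atf-6 libraries spanned nearly the whole range of the 8 libraries. For the fem-3 transcripts given here the wild-type libraries spanned the whole range, and the atf-6 libraries most of it.

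For fog-1, the 444-base transcript Y54E10A.4d held 58.8%, 47.4%, 59.4% and 35.3% of TPM in atf-6 replicates 1 to 4, against 55.2%, 41.0%, 64.1% and 49.2% in wild-type replicates 1 to 4. Its mean effective length was 195 bases, so that 28.9 to 69.8 reads per library carried these shares. For tra-1, the short Y47D3A.6b held 0%, 0.0888%, 31.6% and 4.15% in atf-6 replicates 1 to 4, against 4.28%, 12.3%, 11.3% and 5.92% in wild-type replicates 1 to 4. Without atf-6 replicate 3 both tra-1 transcripts, of 12 compared, no longer overlapped between the strains, on 0 to 8.56 reads of Y47D3A.6b in the other atf-6 libraries. They are complementary shares of 1 gene, so they count as 1 event. The share of all transcripts without overlap was not computed with that library left out. fem-1 came almost wholly from F35D6.1a, with 89.7% to 100% over the 8 libraries.

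**Figure D4:**
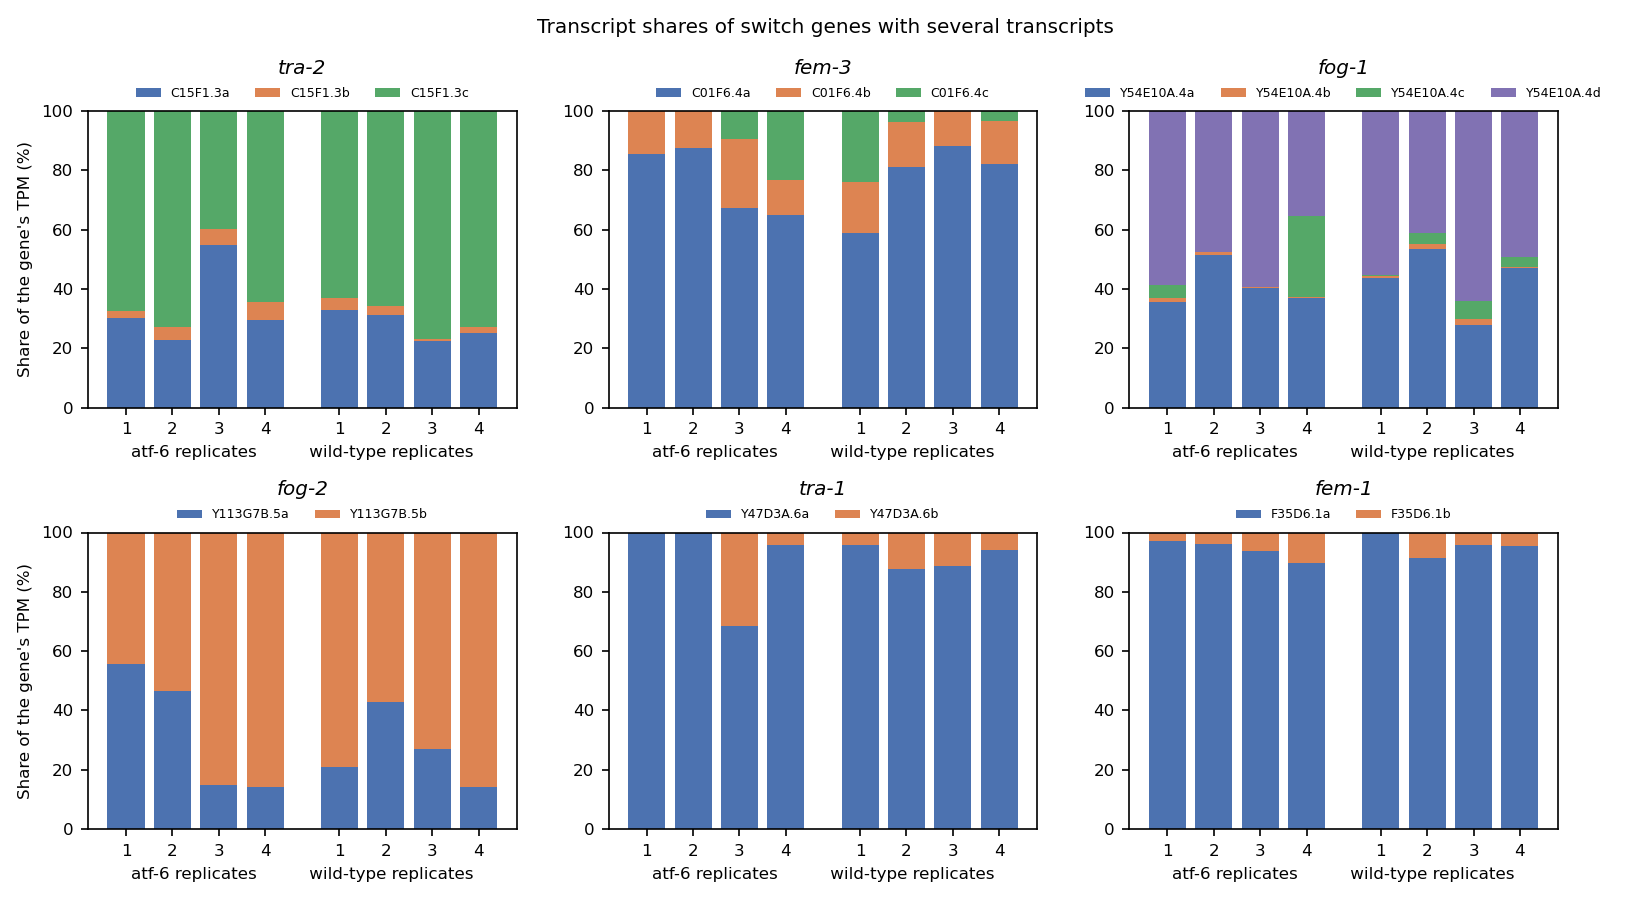
Share of each annotated transcript in the TPM of its gene, in percent, for the 6 switch genes with several transcripts; each bar is a library, with the 4 atf-6 replicates on the left and the 4 wild-type replicates on the right. tra-2 came mostly from C15F1.3c in 7 of 8 libraries, and the shares overlap between the strains for each transcript.

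Among the other sex determination genes, tra-3 was the gene called between the strains. tra-3 (WBGene00006606; chromosome IV, 14436445 to 14444183, minus strand) encodes a calpain protease that cleaves TRA-2. It had 44.97, 46.69, 46.02 and 43.33 CPM in the libraries labelled atf-6, replicates 1 to 4, against 38.42, 34.78, 32.68 and 34.46 CPM in wild-type replicates 1 to 4. The groups did not overlap, the means were 45.3 ± 1.47 CPM in atf-6 and 35.1 ± 2.41 CPM in wild type (SD, n = 4 each), and the level was 1.29-fold higher in atf-6 (log2 fold change 0.37, SE 0.0684, adjusted p = 0.0416, edgeR). The call was lost in each of the 8 fits that left out a library (adjusted p 0.0566 to 0.180), while the log2 fold change stayed between 0.34 and 0.41. The slope of tra-3 on the msp level was -0.13 (SE 0.107, adjusted p = 0.489, edgeR).

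The 6 genes tested of the upstream list, from the X chromosome signal down to tra-3, had a median log2 fold change of 0.14, against 0.0019 for all genes. tra-3 was the 1 that rose, 0 fell and 5 did not pass. Of these, sdc-2, a regulator of dosage compensation and sex, had 16.3 CPM in atf-6 and 13.0 CPM in wild type (adjusted p = 0.663, edgeR). her-1, which encodes the male ligand of TRA-2, was not tested, with at most 0.758 CPM in any library.

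Of the 27 germline regulators around the switch, among them gld-1, the nos and mog genes and daz-1, 0 passed the test and 0 had an unadjusted p below 0.05. Their median log2 fold change was -0.07, and the lowest p belonged to nos-1 and daz-1. nos-1, a Nanos gene, averaged 27.2 CPM in atf-6 and 31.4 CPM in wild type. daz-1, of the DAZ family needed for oogenesis, averaged 318 CPM in atf-6 and 348 CPM in wild type (both adjusted p = 0.850, edgeR). Of the 11 tested paralogs, mostly other PUF genes, 0 passed and 0 had an unadjusted p below 0.05, with puf-5 at 882 CPM in atf-6 and 963 CPM in wild type and puf-11 at 424 CPM in atf-6 and 460 CPM in wild type (lowest adjusted p = 0.841, edgeR). The 4 somatic targets of TRA-1 listed, mab-3, egl-1, dmd-3 and ceh-30, were too low to be tested, with at most 0.765 CPM.

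Sperm components were also counted, beside 88 genes that rose and 13 that fell among all 12375. Over all genes the number called was 16 to 107 with single libraries left out, and 4 with a replicate block. How many sperm genes stayed called in those fits was not counted. Of the 28 msp genes tested 13 rose in atf-6, 0 fell and 15 did not pass, with a median log2 fold change of 1.12 and msp-57, msp-19, msp-55 and msp-53 at the lowest adjusted p (0.0242 to 0.0327, edgeR). Of the 33 other sperm genes tested 11 rose and 0 fell, with a median of 0.99, among them ssq-2, msd-4, sss-1 (6.08 CPM in atf-6 and 2.47 CPM in wild type, adjusted p = 0.0062) and spe-11 (1.68 CPM in atf-6 and 0.52 CPM in wild type, adjusted p = 0.0327, both edgeR). Of the 10 spermatogenesis regulators and sperm chromatin genes tested 0 passed, with a median of 0.89 and 7 at an unadjusted p below 0.05. The list was uneven: the log2 fold change was -0.02 for spe-44, 0.04 for cpb-1, 0.30 for elt-1 and 0.32 for spch-2. For the smz, gsp and remaining spch genes it ran from 0.82 (gsp-3) to 1.29 (spch-3). In that list smz-1 had 3.38 CPM in atf-6 and 1.68 CPM in wild type (adjusted p = 0.0503) and smz-2 had 2.92 CPM in atf-6 and 1.43 CPM in wild type (adjusted p = 0.0710, both edgeR). Of the 18 oocyte genes 0 passed, with a median of -0.08, 1 at an unadjusted p below 0.05 and egg-2, an egg surface protein needed for sperm entry, at 258 CPM in atf-6 and 283 CPM in wild type (adjusted p = 0.644, edgeR). Of the 11 germ cell genes 0 passed, with a median of -0.09, 0 at an unadjusted p below 0.05 and lst-1, a stem cell gene, at 96.1 CPM in atf-6 and 104 CPM in wild type (adjusted p = 0.856, edgeR).

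**Figure D5:**
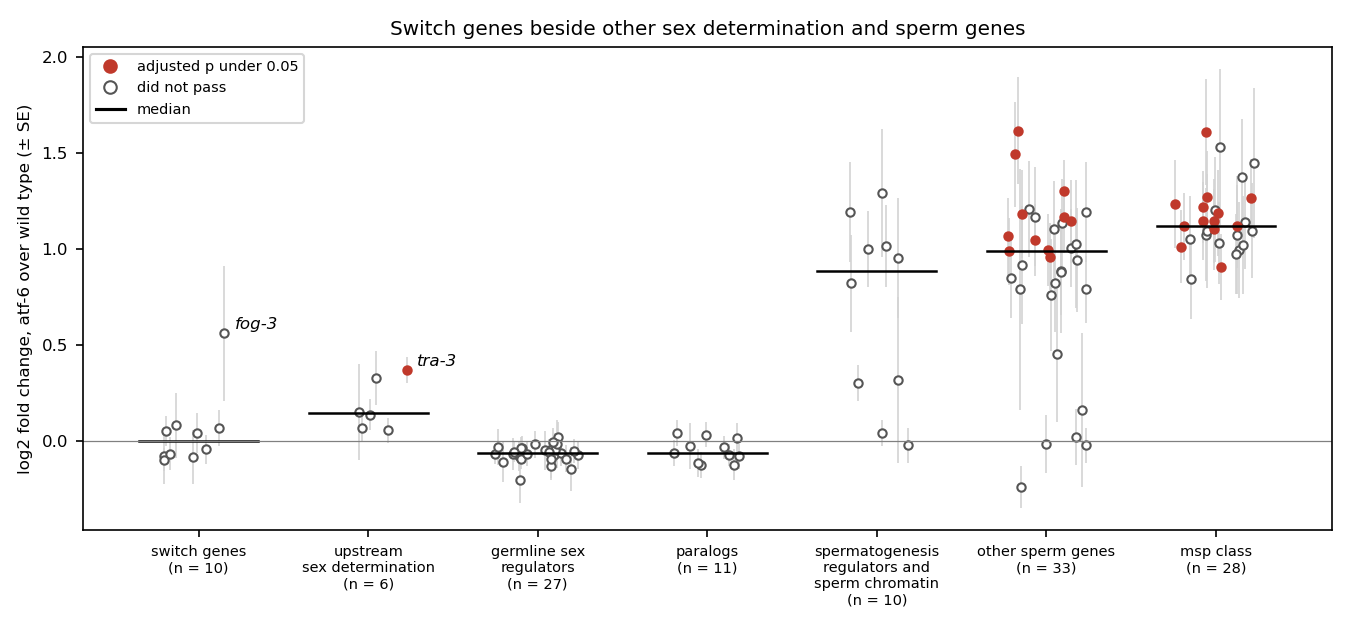
Log2 fold change of atf-6 over wild type (± SE) of each tested gene in the switch genes and 6 other lists, with the list's median as a black line; filled red points have an edgeR adjusted p below 0.05. The 10 switch genes lie near 0 except fog-3 (0.56, SE 0.353), tra-3 is the filled point of the upstream list, and the msp list has a median of 1.12.

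In the slope fit 0 genes passed in any of the lists. At an unadjusted p below 0.05 the fit took 7 of the 27 germline regulators, 4 of the 18 oocyte genes, 5 of the 11 germ cell genes and 15 of the 33 other sperm genes, against 19.4% of all genes. It took 28 of the 28 msp genes, which make up the level they were fitted on. atx-2, an RNA-binding protein that promotes the female fate, had the lowest p of the germline regulators (slope 0.35, SE 0.125, adjusted p = 0.202, edgeR).

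The genes nearest in pattern to each switch gene were found by the root mean square difference of log2 CPM over the 8 libraries, after each gene was centred on its own mean. The values describe these libraries and share their depth and culture. For fem-3, with an SD of 0.219 log2 units, they were mjl-1 (0.0370), insc-1 (0.0474) and inx-17 (0.0581). For fog-2, with an SD of 0.256, they were ugt-60 (0.0302), K03H1.11 (0.0493) and mlcd-1 (0.0526). For tra-1, with an SD of 0.144, they were C05D9.3 (0.0400), hsp-12.6 (0.0442) and vig-1 (0.0442). For fog-1, with an SD of 0.212, they were linc-110 (0.0387), rab-14 (0.0931) and C50B8.6 (0.104).

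For fem-1, with an SD of 0.0914, they were xpo-1 (0.0210), clc-26 (0.0282) and chtl-1 (0.0319). For fem-2, with an SD of 0.0832, they were C14B1.2 (0.0144), pas-7 (0.0166) and Y41D4B.4 (0.0188). For tra-2, with an SD of 0.112, E02H4.6 (0.0340), an unnamed gene WBGene00021747 (0.0356) and gldr-2 (0.0377) came closest. No other switch gene was among the nearest 3 of any of the 10.

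For fbf-1, with an SD of 0.114, the nearest were bpl-1 (0.0257), F10B5.2 (0.0259) and C46C2.2 (0.0266). For fbf-2, with an SD of 0.0744, they were ZK1236.1 (0.0252), famh-136 (0.0374) and F37B12.3 (0.0411). For fog-3, with an SD of 0.274 on few counts, they were cest-35.1 (0.109), F59B10.4 (0.121) and F36H5.4 (0.134).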

How the data were processed

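Poly(A) RNA of whole worms was sequenced over 75 cycles from a stranded kit, per the labels' protocols, and Salmon 0.9.1, STAR 2.5.3a, DESeq2 1.19.51 and WBcel235 are named in the submitters' processing notes without a role. The authors deposited estimated counts per gene, in whole numbers and not scaled for depth, and, per the file headers, estimated counts and TPM per transcript (58105, of which 57844 were matched to a gene). Columns carry library numbers and were tied to samples through each sample's own deposited file. A gene name table named 43540 of the identifiers, and positions and exons came from the Ensembl annotation of WBcel235, whose transcript models differ from those quantified for C15F1.3c and Y54E10A.4d and may differ for others. Each pair of libraries differed by more than sampling noise.

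The counts were tested in R 4.3.3 with edgeR 4.0.16: filterByExpr (12375 genes kept), TMM, a robust quasi-likelihood fit on strain, two-sided, with Benjamini-Hochberg adjustment over all genes and a threshold of 0.05. CPM values use TMM library sizes, a log2 fold change above 0 is higher in atf-6, and the SE is the log2 fold change over the square root of F. A second fit added the centred log2 summed CPM of the msp class. Isoform shares are TPM shares, compared without a test in genes with at least 2 transcripts and 1 TPM in each library. Both fits were run on simulated data, and the smallest fold change or slope they could detect is not given here. Alternatives were RLE and upper-quartile scaling, other filters on low counts, DESeq2 1.42.0, limma-voom (limma 3.58.1), a replicate block, summed transcript reads in place of the gene table, leaving libraries out and, for slopes, other sperm genes as the level or no strain term. The switch genes and the 10 other gene lists (143 entries, 4 without a row) were chosen with earlier results of these data known. Named were all switch genes, the 3 genes nearest to each in pattern and, per list, up to 4 genes past the threshold or, where none passed, the lowest p. Genes named beyond that, such as ftr-1, her-1 and the TRA-1 targets, were chosen after their values were seen.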

Additional observations from a re-analysis of the deposited data

Results flagged for a closer look

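In 54 groups of 4 libraries, values were checked for a library far from the other 3 of its strain. The groups were levels of the switch genes and of tra-3, shares of switch gene transcripts, and the summed msp and other sperm levels. Of the 54, 5 were flagged, where chance flags about 5%, and all 5 were switch gene levels or transcript shares. The fem-2 level was 133.5 CPM in wild-type replicate 3, and 121.6 to 122 CPM in the other wild-type libraries. The fog-1 transcript Y54E10A.4c held 27.5% of fog-1 TPM in atf-6 replicate 4, and 0% to 4.32% in the other atf-6 libraries. The tra-1 transcript Y47D3A.6a held 68.43% of tra-1 TPM in atf-6 replicate 3 (95.84% to 100% in the other atf-6 libraries), and Y47D3A.6b, which makes up the rest of the same gene, held 31.57% there. The fem-3 transcript C01F6.4c held 23.91% of fem-3 TPM in wild-type replicate 1, and 0% to 3.61% in the other wild-type libraries.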

How the results depend on the processing

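With 4 libraries per strain, few fog-3 counts and reads that the fbf pair may share limit what could be detected. Of 380 alternative values for the 20 fold changes and slopes of the switch genes, 356 kept direction and side of the threshold, 8 DESeq2 slopes kept direction and have no adjusted p, 15 turned and 1 passed, the tra-1 slope without atf-6 replicate 2. The lowest adjusted p was 0.582 for fold changes and 0.0430 for slopes. No switch gene was called between strains under any alternative run (leave-one-out 0 to 0), and leave-one-out gave 0 to 1 switch genes with a slope and 0 to 2 transcripts without overlap. The 2 transcripts are the complementary shares of tra-1, without atf-6 replicate 3. No share over all transcripts was computed with a library left out. DESeq2 gave an adjusted slope p to 3135 genes and to 2 of the 10 switch genes.

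Over all genes, 101 changed between strains; DESeq2 gave 194, plain sums of transcript reads 39, a threshold of 0.01 gave 15 and leave-one-out 16 to 107 (107 without wild-type replicate 3, 16 to 41 without each other library). For slopes on the msp level, 0 genes passed; upper-quartile scaling gave 9, no filter 24, DESeq2 285, plain sums 8, no strain term 145 and leave-one-out 0 to 1436 (1436 without atf-6 replicate 2, 0 without each other library). The cause was not tested. Same-numbered libraries had correlations of -0.86, -0.17, -0.77 and 0.50 for replicates 1 to 4, so only those of replicate 4 deviated in the same direction. These few values do not settle whether the numbers pair the libraries. With the replicate number as a block 4 genes changed, 0 had a slope, 0 switch genes passed in either fit, and tra-3 had an adjusted p of 0.354.

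Log2 fold changes that turned when libraries were left out, singly or as the pair of replicates 3, ranged from -0.0295 to 0.116 for fbf-1, -0.146 to 0.180 for fog-2, -0.123 to 0.0222 for tra-2, -0.270 to 0.00697 for fem-3, -0.189 to 0.0298 for fog-1 and -0.0278 to 0.145 for tra-1. The fog-1 slope ranged from -0.00406 to 0.413. With plain sums tra-2 turned (0.0199). Without the strain term slopes turned for fbf-2 (0.0153), fem-2 (-0.0406), fog-3 (0.239), tra-2 (-0.00398) and tra-3 (0.222). Besides the single libraries left out, tra-3 lost its call with the replicate block (adjusted p = 0.354, edgeR) and with plain sums (0.0728). It was also lost without the pair of replicates 3 (0.0822) and at the threshold of 0.01. The call was kept under the other alternatives that use all 8 libraries.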
